A study of Mus musculus with 367 samples.

Results

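A set of 9 genes of lipid transport was described in cells sorted from large skin wounds of mice: the apolipoproteins Apoe and Apod, the lipid exporters Abca1 and Abcg1, the scavenger receptors Cd36, Msr1 and Scarb1, the lipoprotein receptor Lrp1 and the sterol esterifying enzyme Soat1. They were chosen by name, as 9 of the 50600 gene identifiers in the deposited tables, with earlier results of these data known. The cells came from Sm22-Cre;tdTomato mice of mixed background that were 3 to 8 weeks old per the labels, or 6 to 8 weeks per the methods, when a square of back skin was excised, and wound tissue was taken 12, 15 and 21 days after wounding, with 2 to 3 animals pooled per time point. In these mice the Sm22 (Tagln) promoter drives Cre, so any cell in which that promoter has been active keeps a red label, and viable tdTomato-high cells were loaded onto a microfluidic chip that captures and amplifies single cells (Fluidigm C1). All groups shared the genotype, the wound and the sort. They differed in the day, and each day also had its own chip captures and sequencing depth. There was no unwounded group.

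The tables hold 367 cells from 7 chip captures, 3 at day 12 and 2 each at days 15 and 21, of which 292 passed limits on sequencing depth, gene number and mitochondrial share. Kept cells had an estimated 171158 to 7963191 fragments, with a median of 1454744. Cells were divided into 3 kinds by fixed limits. Matrix cells (198) had Col1a1 at 1000 FPKM or more, Rgs5 under 100 and Tyrobp under 50. Mural cells (57) had Rgs5 at 500 or more and Tyrobp under 50, and myeloid cells (26) had Tyrobp at 500 or more. Another 11 cells met none of these. FPKM counts fragments relative to transcript length and to the mapped total of the cell, so levels can be set side by side between genes. The captures are the replicates here. Whether 2 captures of a day came from different mice is not stated, so p-values measure the spread between captures, which may be technical.

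Marker sums were compared between the kinds. Each sum includes the gene that defines its kind (Tyrobp, Rgs5 or Col1a1), so its separation follows in part from the limits. Rgs5 alone had a median of 6697 FPKM over mural cells, and Tyrobp 5022 over myeloid cells. Summed over 10 myeloid markers, the level per capture was 20342 to 34363 FPKM in myeloid cells, 6.56 to 68.3 in matrix cells and 0.657 to 53.5 in mural cells. The sum of 8 mural markers was 8284 to 9949 FPKM in mural cells against 1.25 to 27.3 in matrix cells. Both other kinds held matrix transcripts. The sum of 8 matrix markers was 21516 to 41955 FPKM in matrix cells, 4833 to 19813 in mural cells and 890, 15401, 4872 and 92.9 FPKM in the myeloid cells of day 12 capture 2, day 15 capture 2 and day 21 captures 1 and 2, and 4 of the 26 myeloid cells held Col1a1 at 1000 FPKM or more. The summed endothelial, keratinocyte and lymphocyte markers stayed at or below 38.65 FPKM in every capture and kind. Schwann and melanocyte markers reached 88.2 FPKM in matrix and 75.98 in mural cells, adipocyte markers 172 in mural and 197 in myeloid cells, and neutrophil markers 54.8 in myeloid cells. Per the study's methods, wells that held more than a single cell under the microscope were excluded from downstream analyses, and no doublet caller was run here.

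Cells receive cholesterol by taking up lipoprotein particles, debris and modified lipoproteins through receptors, and store it as esters in droplets. They return it to the blood by export onto apolipoproteins. Macrophages that clear dying cells carry a large sterol load and are known for making ApoE and for expressing scavenger receptors, while ApoD, a lipocalin that binds small hydrophobic ligands, is known from fibroblasts and nerve. In macrophages the exporter and ApoE genes are classical targets of the sterol-sensing LXR nuclear receptors.

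The promoters of Apoe, Cd36 and Apod are shown because these members were called between myeloid and matrix cells. Apoe and Cd36 were higher in myeloid cells and Apod was lower. Cd36 was detected almost only in myeloid cells, so its call restates where it was detected. Each is the 250 bases before the RefSeq start on the minus strand of GRCm38.p6, written 5′ to 3′. Capitals mark every match on either strand to GGTCA, the core of a nuclear receptor binding site, or to GAGGAA, the core recognised by PU.1 and other ETS factors.
Apoe promoter, chr7:19699189-19699438: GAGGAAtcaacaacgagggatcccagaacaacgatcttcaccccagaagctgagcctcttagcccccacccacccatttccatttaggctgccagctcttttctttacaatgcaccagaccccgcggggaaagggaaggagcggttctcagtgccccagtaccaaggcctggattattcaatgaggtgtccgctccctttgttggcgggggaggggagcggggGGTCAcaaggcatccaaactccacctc
Cd36 promoter, chr5:17835897-17836146: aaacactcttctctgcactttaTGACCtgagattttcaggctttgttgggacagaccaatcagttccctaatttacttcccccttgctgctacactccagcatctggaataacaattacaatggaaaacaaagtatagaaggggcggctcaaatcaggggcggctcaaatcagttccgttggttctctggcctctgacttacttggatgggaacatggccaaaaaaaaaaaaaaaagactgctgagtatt
Apod promoter, chr16:31314809-31315058: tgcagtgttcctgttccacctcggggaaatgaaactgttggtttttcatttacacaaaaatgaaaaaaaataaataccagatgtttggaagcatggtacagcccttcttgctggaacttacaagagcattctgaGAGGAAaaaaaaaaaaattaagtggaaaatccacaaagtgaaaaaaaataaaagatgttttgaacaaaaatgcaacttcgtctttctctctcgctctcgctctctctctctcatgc
The Apoe window held GAGGAA at its first base, 250 bases before the start, and GGTCA beginning 27 bases before the start. The Cd36 window held TGACC, the reverse complement of GGTCA, beginning 228 bases before the start. The Apod window held GAGGAA beginning 116 bases before the start. Over all 32851 RefSeq promoter windows of this length, 35.2% held GGTCA and 23.3% held GAGGAA on either strand, so both motifs are common and the matches are descriptions only. The Cd36 window starts inside the span of the gene as GENCODE annotates it. RefSeq gave 3 starts for Apoe, of which the most upstream is shown. Of the other 2 windows, 1 held GAGGAA beginning 132 bases before its start and 1 held neither motif. Windows were found for 6 of the 9 genes, Msr1 not among them.

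Apoe (ENSMUSG00000002985), which encodes the ligand that carries lipoproteins to receptors of the LDL receptor family, lies on chromosome 7 of mm10, the build of all coordinates here, at 19696109 to 19699188. Its mean level in myeloid cells was 26680 FPKM in day 12 capture 2, 27650 in day 15 capture 2, and 10965 and 13963 in day 21 captures 1 and 2. In matrix cells the 7 capture means ran from 13.8 to 78.2 FPKM with a median of 35.7. In mural cells they were 99.3, 226, 48.4, 425 and 15.8 FPKM in day 12 captures 1 to 3, day 15 capture 1 and day 21 capture 1. The myeloid captures did not overlap those of either other kind, and the pair of captures with fewer than 3 myeloid cells had 8062 and 18671 FPKM. Relative to matrix cells Apoe was higher in myeloid cells by 8.88 ± 0.67 on the log2(FPKM + 1) scale (SE), with an adjusted p of 2.91e-06 by limma, and it was higher in 4 of 4 captures that hold both kinds. Relative to mural cells it was higher by 7.69 ± 0.78 (adjusted p = 4.60e-05 by limma), in 2 of 2 captures.

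The separation held cell by cell with 1 exception. Of 26 myeloid cells, 25 held Apoe at 1000 FPKM or more, and these ran from 4229 to 88200 FPKM. Among the 255 matrix and mural cells, 6 reached 1000 FPKM and the highest had 3640. The remaining myeloid cell, from day 12 capture 2, was listed at 0 for Apoe. This cell had Tyrobp at 3957 FPKM but C1qb at 0 and Lyz2 at 1.49, and it lacked 7 of the 9 genes, with Abcg1 at 201 and Soat1 at 12.1 FPKM. Its identity beyond the Tyrobp limit was not tested.

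A low Apoe signal was present outside the myeloid kind. Apoe was detected, that is listed above 0, in 61 of 198 matrix cells (30.8%, interval 24.5 to 37.7) and in 28 of 57 mural cells (49.1%, 35.6 to 62.7). Intervals of shares are at the 95% level by the Clopper-Pearson method and cover counting error only. Where no cell had a gene, the limit given is instead 3 cells of the total. Day 15 capture 1, with 73 of 84 cells kept, held 0 myeloid cells among the kept cells. In it 12 of 50 matrix cells and 7 of 18 mural cells had Apoe. Of the 61 matrix cells with Apoe, 19 also had any of 9 other myeloid transcripts, against 46 of the 137 matrix cells without it. Lyz2, whose mean in myeloid cells was 12231 FPKM beside 20600 for Apoe, was detected in 11 matrix cells, and C1qb in 17. The part of free or carried-over myeloid RNA in the Apoe of matrix cells was not tested. Mural minus matrix was 1.19 (95% interval -0.11 to 2.49, adjusted p = 0.47 by limma), with mural cells higher in 4 of 5 captures and lower in day 21 capture 1.

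**Figure D1:**
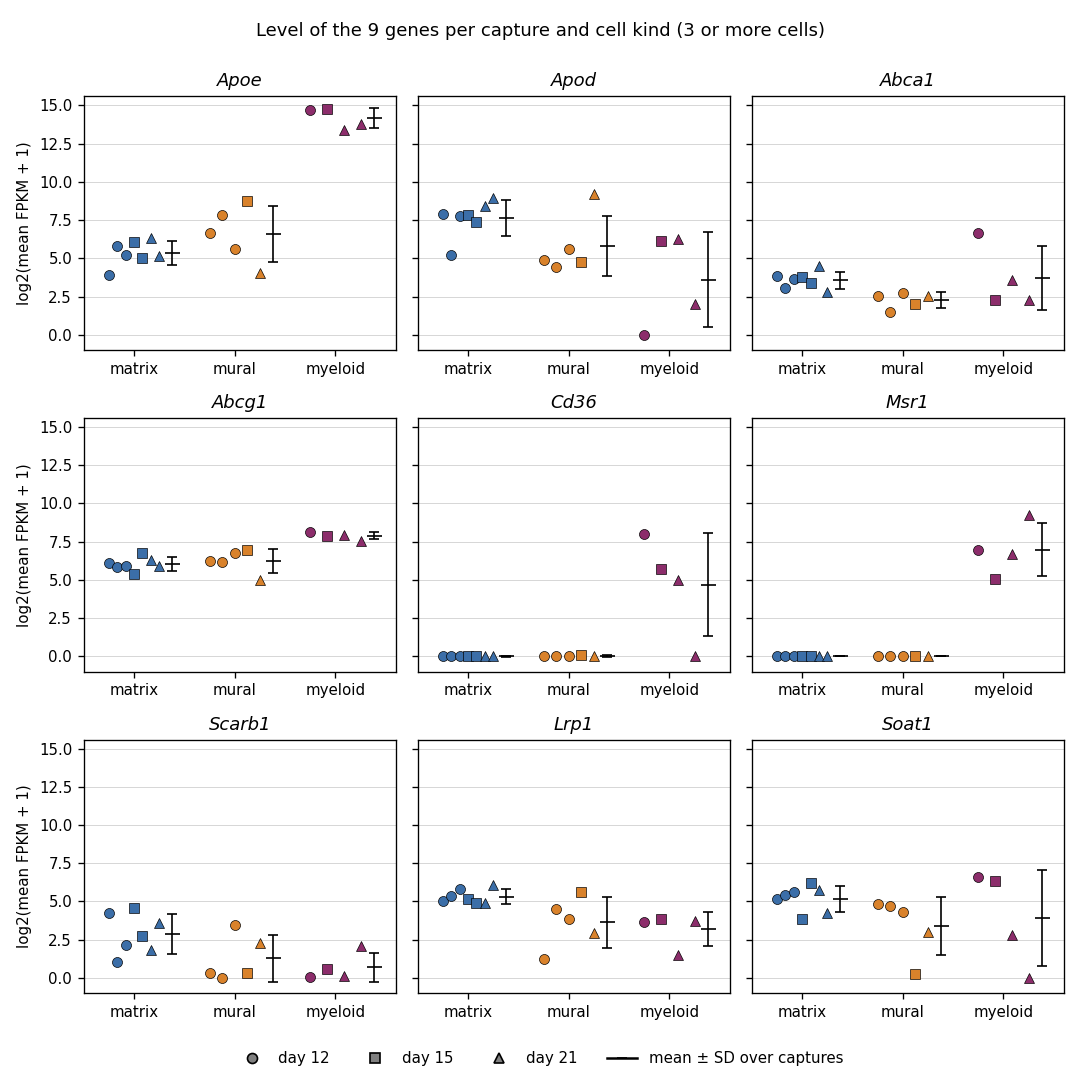
Mean level of each of the 9 genes per capture in matrix (blue), mural (orange) and myeloid (purple) cells, as log2(mean FPKM + 1), for captures with 3 or more cells of the kind. Symbols give the day and bars the mean ± SD over captures. Apoe sits between 13.4 and 14.8 in the 4 myeloid captures and below 9 in every other one, whereas Msr1 is at 0 outside the myeloid kind.

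Apod (ENSMUSG00000022548, chromosome 16, 31296192 to 31314808) showed the opposite distribution. It was the member with the highest level in matrix cells, with capture means of 35.8 to 496 FPKM and a median of 231, and was detected in 147 of 198 cells (74.2%, 67.6 to 80.2). In mural cells it was at 28.01, 21.0, 48.2, 26.3 and 590 FPKM, in the order of captures given for Apoe. In myeloid cells it was listed at 0 in day 12 capture 2, and was 70.5 FPKM in day 15 capture 2 and 74.5 and 3.06 in day 21 captures 1 and 2. Myeloid minus matrix was -4.32 ± 0.89 (SE, adjusted p = 0.0066 by limma), lower in 4 of 4 captures, although 2 myeloid captures reached above the lowest matrix capture. None of the 14 myeloid cells of day 12 had Apod, which allows a share of up to 21.4%, against 6 of the 12 later ones.

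Matrix RNA differed between the myeloid cells with and without Apod, with overlap. The 6 cells with Apod had Col1a1 at 2.67 to 10805 FPKM with a median of 3131, and 3 of them were at 1000 or more, whereas the 20 cells without Apod had 0.88 to 2047 FPKM with a median of 7.17 and 1 cell at 1000 or more. When myeloid cells with Col1a1 at 1000 FPKM or more were left out together with stricter Rgs5 and Tyrobp limits, myeloid minus matrix was -7.34 (adjusted p = 0.00044 by limma) and myeloid minus mural moved from -2.73 (adjusted p = 0.14) to -5.54 (adjusted p = 0.0058). Day 15 capture 2 then had only 2 myeloid cells and left the fit. The mural mean of 590 FPKM in day 21 capture 1 also stood apart. In that capture 6 of 8 mural cells had Apod and the sum of the matrix markers was 19813 FPKM, against 4833 to 7338 in the other mural captures. A single cell with 3922 FPKM held 62.6% of the Apod summed over all mural cells. The part of matrix RNA in these values was not tested.

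The exporters differed from each other. Abcg1 (ENSMUSG00000024030, chromosome 17, 31057675 to 31117988), a transporter that moves sterol to lipoprotein particles, was at 277, 235, 241 and 188 FPKM in the 4 myeloid captures. In matrix cells it ranged from 40.1 to 109 FPKM with a median of 59.2, and in mural cells it was 72.7, 71.1, 109, 125 and 30.97. The myeloid captures lay above all others. Myeloid minus matrix was 1.91 ± 0.58 (SE, adjusted p = 0.039 by limma), higher in 4 of 4 captures, and myeloid minus mural was 1.69 ± 0.67 (adjusted p = 0.16). The first call was close to the threshold and was kept in 8 of 23 alternative settings, being lost when any capture other than day 15 capture 2 was left out, although the difference stayed between 1.51 and 2.39. In the captures with 2 and 1 myeloid cells it was at 515 and 706 FPKM. Within single cells, 21 of 26 myeloid cells had Abcg1, with a median of 275 FPKM among those and values from 0.44 to 901, and 112 of 198 matrix cells had it, with a median of 83.7 and values from 0.18 to 523.

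Abca1 (ENSMUSG00000015243, chromosome 4, 53030787 to 53159895) loads lipid onto lipid-poor apolipoproteins. It was detected in 146 of 198 matrix cells (73.7%), but at a mean of only 5.85 to 21.5 FPKM per capture, and in mural cells at 4.80, 1.81, 5.69, 2.97 and 4.92 FPKM. All 5 mural captures were below their matrix partner and below every matrix capture, with a difference of -1.74 (95% interval -3.39 to -0.09) that did not pass the test over all genes (adjusted p = 0.38 by limma). In myeloid cells Abca1 was at 102 FPKM in day 12 capture 2 and at 3.73, 11.1 and 3.78 FPKM in the 3 later captures. Only the day 12 capture stood above the matrix cells, and myeloid minus matrix was 0.42 (95% interval -1.40 to 2.24, adjusted p = 0.77). Without day 12 capture 2 the difference was -0.78. Of the smaller day 12 captures, 1 had 10.4 FPKM over 2 cells and the other 34.04 FPKM in its 1 cell. A difference between days within myeloid cells was not tested, since only 1 day 12 capture held 3 or more of them.

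**Figure D2:**
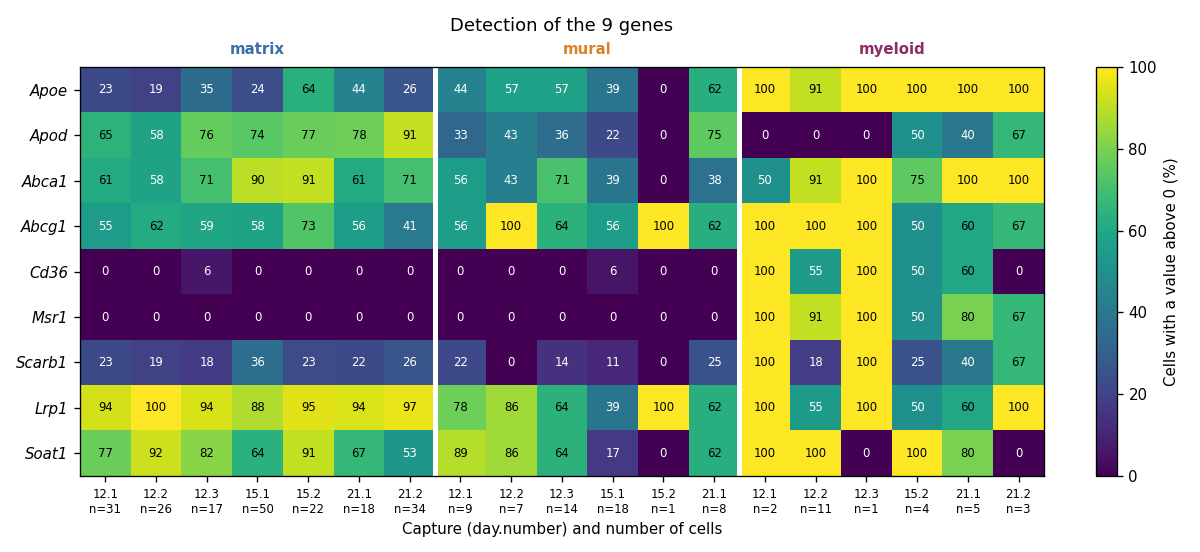
Share of cells with a value above 0 for each gene (rows) in each capture and kind (columns, labelled day.capture with the number of cells), printed in percent and coloured from 0 to 100. Lrp1 was detected in 88 to 100% of matrix cells per capture, and Msr1 in none of the matrix or mural cells.

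The scavenger receptors Msr1 and Cd36 were detected almost only in myeloid cells. Both passed the filter on low values through that kind alone, so their calls restate where they were detected. Msr1 (ENSMUSG00000025044, chromosome 8, 39581685 to 39642673), a class A receptor for modified lipoproteins, was listed at 0 in all 198 matrix cells and all 57 mural cells, which allows shares of up to 1.52% and 5.26% of cells. It was detected in 21 of 26 myeloid cells (80.8%, 60.6 to 93.4), at means of 124, 31.9, 103 and 599 FPKM in the 4 captures, and 312 and 775 in those with 2 and 1 cells. Of the 599 FPKM in day 21 capture 2, most came from 1 of its 3 cells, at 1718 FPKM. The adjusted p by limma was 2.91e-05 against matrix cells and 0.00016 against mural cells. No fold is given against cells at 0.

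Cd36 (ENSMUSG00000002944, chromosome 5, 17781690 to 17888801), a class B receptor for fatty acids and oxidised lipoproteins, was at 261 FPKM in day 12 capture 2, 51.95 in day 15 capture 2 and 30.5 and 0 in day 21 captures 1 and 2. The captures with 2 and 1 myeloid cells, day 12 captures 1 and 3, had 461 and 32.7 FPKM. It was detected in 14 of 26 myeloid cells (53.8%, 33.4 to 73.4), in 1 matrix cell at 0.56 FPKM and in 1 mural cell at 1.55. The adjusted p by limma was 0.0054 against matrix and 0.013 against mural cells, and with the stricter kind limits it was 0.052 and 0.070. Day 12 capture 2 and day 21 capture 1 each decided the call against mural cells, for which leaving them out gave adjusted p = 0.10 and 0.075. Adipocytes also express Cd36. The 4 adipocyte markers summed to 197 FPKM in the myeloid cells of day 12 capture 2 and to between 0 and 0.217 in the 3 later captures. In mural cells they summed to 25.3 to 172 FPKM per capture, with Fabp4 detected in 27 of 57 cells, while Cd36 was at 0 in all but 1 mural cell. Of these markers Adipoq and Cidec were at 0 in every cell of the 3 kinds, and Plin1 and Fabp4 were each detected in 2 of 26 myeloid cells. Among myeloid cells 13 had both receptors, 8 had Msr1 without Cd36, 1 had Cd36 without Msr1 and 4 had neither.

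**Figure D3:**
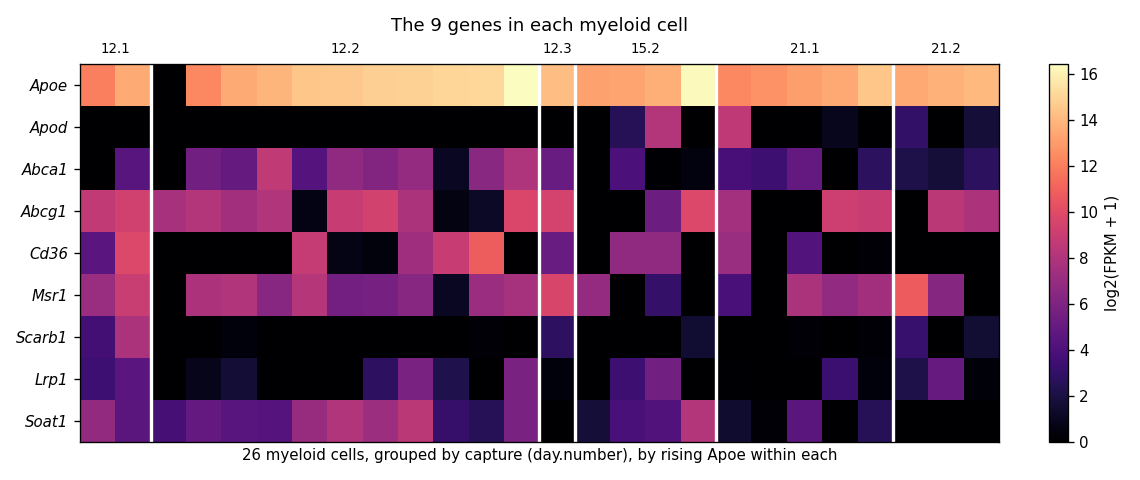
The 9 genes in each of the 26 myeloid cells, as log2(FPKM + 1), grouped by capture (day.capture) and ordered by Apoe within each. Apoe is high in all but the first cell of day 12 capture 2, while Cd36 is at 0 in 12 cells and Apod is at 0 in all day 12 cells.

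Scarb1 (ENSMUSG00000037936, chromosome 5, 125277087 to 125341094), the HDL receptor, was sparse in every kind. It was detected in 51 of 198 matrix cells (25.8%), 8 of 57 mural cells (14.04%) and 10 of 26 myeloid cells (38.5%). Its matrix capture means ran from 1.07 to 23.04 FPKM with a median of 5.73, and its myeloid means were 0.043, 0.475, 0.070 and 3.29 FPKM. The captures with 2 and 1 myeloid cells were higher, at 116 and 5.89 FPKM, and with them myeloid minus matrix was -0.73. Without them myeloid minus matrix was -1.91 (95% interval -3.82 to 0.01, adjusted p = 0.16 by limma), with the opposite order in the share of cells, so no direction is read from it. Mural minus matrix was -1.48 (-3.21 to 0.26, adjusted p = 0.50), and the mural captures overlapped those of matrix cells.

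Lrp1 (ENSMUSG00000040249, chromosome 10, 127538161 to 127621148), a large endocytic receptor whose ligands include ApoE, was the most evenly detected member in matrix cells. It was present in 186 of 198 cells (93.9%, 89.7 to 96.8) at 28.3 to 67.9 FPKM per capture, with a median of 34.2. In mural cells it was detected in 35 of 57 cells (61.4%) at 1.37, 21.6, 13.3, 47.6 and 6.81 FPKM, and in myeloid cells in 17 of 26 (65.4%) at 11.6, 13.4, 1.84 and 12.0 FPKM. The captures with 2 and 1 myeloid cells were at 15.6 and 0.26 FPKM. All 4 myeloid captures were below all 7 matrix captures. Myeloid minus matrix was -2.22 (95% interval -3.88 to -0.56), which missed the threshold (adjusted p = 0.068 by limma) and passed it when log2 values were averaged over cells (adjusted p = 0.0064), with TPM scaling (0.038) and without the capture block (0.047). Mural minus matrix was -1.51 (-3.02 to -0.0017, adjusted p = 0.41), lower in 4 of 5 captures. It was -1.81 with an adjusted p of 0.027 by limma when log2 values were averaged over cells. The exception, day 15 capture 1, contains 1 mural cell at 799 FPKM, and only 7 of its 18 mural cells had Lrp1.

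Soat1 (ENSMUSG00000026600, chromosome 1, 156424525 to 156474331), which esterifies cholesterol for storage, was detected in 144 of 198 matrix cells (72.7%) at 13.6 to 73.4 FPKM with a median of 42.4. Mural captures were at 26.9, 25.5, 18.5, 0.220 and 7.09 FPKM, each below the matrix cells of its own capture. The difference was -1.86 (95% interval -3.60 to -0.13, adjusted p = 0.37 by limma). The 4 myeloid captures were at 94.95, 78.4, 5.91 and 0 FPKM, beside 68.1 and 0 in those with 2 and 1 cells, so that they spanned the whole range of the matrix captures, and myeloid minus matrix was -1.44 (-3.36 to 0.47, adjusted p = 0.28). Soat1 was detected in 13 of 14 myeloid cells at day 12, 4 of 4 at day 15 and 4 of 8 at day 21.

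Cd36 and Msr1, whose calls follow from the filter, were left out of the counts against all genes. The shares over all genes still include both, and other genes detected almost only in myeloid cells, so the gene sets are not alike. Of the other 7 members, 3 were called at an adjusted p below 0.05 between myeloid and matrix cells, where 15.7% of the 14019 genes tested were called. Apoe and Abcg1 were among the 3.05% of genes called higher in myeloid cells, and Apod was among the 12.6% called lower. The median difference of all genes in this comparison was -0.85, and 27.9% of genes were above 0. The differences of Lrp1 (-2.22), Scarb1 (-1.91) and Soat1 (-1.44) were below that median. Their place within the spread of all genes was not tested. Between myeloid and mural cells 1 of these 7 was called (Apoe, higher), beside 2.11% of genes called higher and 6.53% called in either direction, with a median of -0.58. Between mural and matrix cells 0 members were called, beside 1.02% of all genes and a median of -0.25. At an unadjusted p below 0.05 that comparison held 3 of these 7 members, namely Abca1, Lrp1 and Soat1, beside 12.1% of all genes. The comparisons share profiles, since the 3 kinds were fitted together. In simulated data with 200 changed genes, a true difference of 2 between myeloid and matrix cells was called for 0% of those genes. A true difference of 4 was called for 70.5%. In the real comparison 2197 genes were called, and the adjusted threshold depends on that number. The simulated shares therefore do not carry over to the real comparison.

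**Figure D4:**
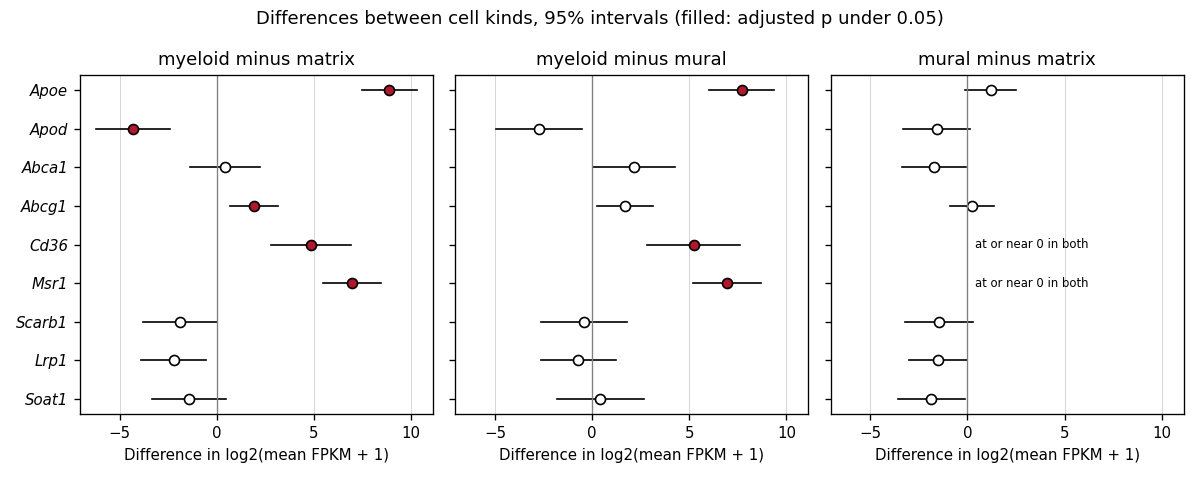
Difference of each gene between kinds in log2(mean FPKM + 1), with its 95% interval, from 1 limma fit with capture as a block. Filled points had an adjusted p below 0.05: 5 genes for myeloid minus matrix, 3 for myeloid minus mural and 0 for mural minus matrix. Values for Cd36 and Msr1 depend on the pseudocount of 1 FPKM, since the second group was at or near 0. Both are among the filled points of the comparisons with myeloid cells, where their calls follow from the filter.

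The order of the members by level differed between kinds. In matrix cells Apod led with a log2 level of 7.64 ± 1.19 (SD, n = 7 captures), followed by Abcg1 at 6.03 ± 0.44. Apoe (5.35 ± 0.81), Lrp1 (5.32 ± 0.47) and Soat1 (5.18 ± 0.84) came next and did not differ beyond their spread, and Abca1 (3.57 ± 0.56) and Scarb1 (2.89 ± 1.32) were lower. In mural cells Apoe (6.58 ± 1.83, n = 5 captures), Abcg1 (6.23 ± 0.77) and Apod (5.78 ± 1.96) overlapped at the top. In myeloid cells Apoe stood alone at 14.16 ± 0.67 (n = 4 captures), above Abcg1 at 7.87 ± 0.23 and Msr1 at 6.99 ± 1.72. The other members lay between 0.70 and 4.68, with SDs of up to 3.38 that exceed the gaps between them.

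Across the days the matrix cells were compared over all 7 captures, and Cd36 and Msr1 were too low to be tested. None of the 7 members tested was called between any pair of days, with 1 member at an unadjusted p below 0.05 (Apod, days 21 and 12), where limma called 0% (days 15 and 12), 0.00738% (days 21 and 12) and 0% (days 21 and 15) of 13550 genes. Of these genes, 790, 969 and 745 were at an unadjusted p below 0.05. Apod came closest. It was at 237, 35.8 and 213 FPKM in the day 12 captures, 231 and 166 at day 15, and 341 and 496 at day 21, so both day 21 captures were above all 5 earlier ones. The difference of day 21 from day 12 was 1.74 (95% interval 0.19 to 3.29), with an unadjusted p of 0.031 and an adjusted p of 0.67 by limma, and it was 0.87 without day 12 capture 2. Apod was detected in 48 of 74 matrix cells at day 12, 54 of 72 at day 15 and 45 of 52 at day 21. Depth differed between the captures. Per capture, the median of fragments over kept cells was 2074750, 1239650 and 1304250 at day 12. It was 965441 and 946324 at day 15, and 2148630 and 2350970 at day 21. The effect of depth on these shares was not tested. The other 6 members differed by -0.42 to 0.77 between days 21 and 12, each with an interval that includes 0. In simulated data with 200 changed genes, a true difference of 2 between days 15 and 12 was called for 4% of those genes. A true difference of 4 was called for 62.5%. The simulated spread did not allow for the group means removed, so shares in real data may be lower. Days 21 and 12 were not simulated.

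**Figure D5:**
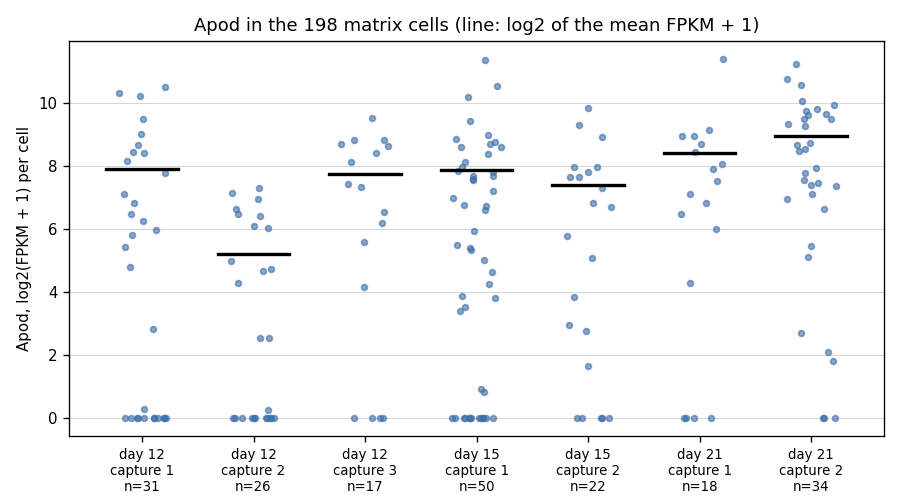
Apod in single matrix cells by day and capture, as log2(FPKM + 1), with a line at log2 of the capture mean + 1. Cells without Apod sit at 0, and day 12 capture 2, with a mean of 35.8 FPKM, lies below the other captures.

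Within matrix cells the correlations between members were close to 0. Many of these cells were listed at 0 for a member, so low correlations do not show that the members vary independently. After centring on the capture, Pearson's r between pairs of members over the 198 cells ranged from -0.14 to 0.16, with a median of 0.0065 over 21 pairs. The highest was Apod with Lrp1 (r = 0.16), which 140 cells held together. In the 26 myeloid cells the range over 28 pairs was -0.51 for Abcg1 with Cd36 to 0.53 for Apoe with Abca1. For the latter, Spearman's rho was 0.26. These values describe sparse cells that share chips and depth, and Abca1 itself had r = -0.40 with the log10 of the fragments in myeloid cells.

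Over the 16 profiles of capture and kind, the genes most like Apoe were Laptm5 (r = 0.97), C3ar1 and Ms4a6c (both 0.96), with mean levels of 517, 161 and 298 FPKM in myeloid cells. Msr1 was most like Cbr2, Fcrls (both 1.00) and Susd3 (0.99), and Cd36 most like Clec4d (0.99), Gm49339 (0.98) and Mpeg1 (0.97). The genes nearest to Apod were Adh1 (0.97), which oxidises alcohols and retinol, Igsf10 (0.88) and the collagen gene Col3a1 (0.87). For Abcg1 they were Grk2 (0.90), the lipid droplet coat gene Plin2 (0.90) and Gm26473 (0.89). Abca1 was nearest to Ctla2a (0.88), Pigf (0.82) and Gpnmb (0.82). Lrp1 was followed by Abhd14a (0.85), Isg20 (0.83) and Rabgap1 (0.83), and Scarb1 by Smoc2 (0.81), Sema3b (0.81) and Recql5 (0.80). The profiles of 1 kind resemble each other, so high values in this list mostly mark genes that separate kinds, and they were compared over 6778 genes.

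The wider pathway was followed in 6 lists of 77 genes, of which 59 passed the filter in the comparison between kinds. Relative to matrix cells 8 were called higher and 5 lower in myeloid cells, beside 3.05% and 12.6% of all genes, with a median of -0.39 beside -0.85 over all genes. The highest were the endosomal glycoprotein Cd68 (9.35), which is also among the myeloid markers, the scavenger receptors Stab1 (8.09) and Mrc1 (7.84), and Trem2, a lipid-sensing receptor. Cd68 was at 1279 FPKM in myeloid cells against 2.34 in matrix cells, Stab1 at 491 against 4.56 and Mrc1 at 508 against 0.808. Trem2 was at 184 FPKM in myeloid cells, at 0.00065 in matrix cells and listed at 0 in mural cells, so no fold is given. Trem2 and Mrc1, which was at 0.665 FPKM in mural cells, passed the filter on low values through myeloid cells alone. Their calls restate where they were detected, and the counts of list genes called higher include both. The lowest were Scarf2 (-3.68), the exporter Abcg2 (-3.36), the oxysterol-binding protein gene Osbpl1a (-3.03) and Lrp4 (-2.47). Each of these 8 had an adjusted p below 0.05 by limma.

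By list, 3 scavenger receptors of 10 tested were higher and 1 was lower, 4 sterol handling genes of 15 were higher and 2 lower, and 1 of 10 regulators was higher, with none lower. Of the rest, 1 of 7 further ABC exporters and 1 of 12 lipoprotein receptors were lower. None of the 5 other apolipoproteins tested was called, and 8 of the 13 listed, Apoa1 among them, were too low to be tested. Relative to mural cells 9 list genes were called higher, beside 2.11% of all genes, led by Stab1 (9.13), Cd68 (8.13), Mrc1 (8.09) and Trem2, and Abcg2 was lower (-5.37) by limma. The 9 again include Mrc1 and Trem2, which passed the filter through myeloid cells alone. Abcg2 was at 91.9 FPKM in mural cells, 25.9 in matrix cells and 2.85 in myeloid cells. Between mural and matrix cells limma called 0 list genes, with 11 of 59 at an unadjusted p below 0.05 beside 12.1% of all genes, and between days it called 0, with 2 or 3 of 52 at that level in each comparison, beside 5.50 to 7.15% of all genes. The lists were not tested as sets.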

How the data were processed

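Single cells from wounds of Sm22-Cre;tdTomato mice were captured on Fluidigm C1 chips, amplified with SMART-seq2 chemistry and sequenced as paired ends. Per the labels and methods, the authors aligned reads to mm10 with Bowtie 1.0.0, quantified them with RSEM against GENCODE release 13, and deposited FPKM values per gene and cell. The files give no read counts, so the fragments of each cell were estimated from the smallest steps of its FPKM values, and cells under 159000 fragments, over 11000 genes or over 15% mitochondrial RNA were left out. The labels of day 12 capture 3 name the table of capture 2, and the table with the matching number of cells was used, which affects only the capture number. Identifiers were named from GENCODE release 21. Overlapping genes exist for Abcg1, Scarb1, Lrp1 and Soat1, and strand-specific counting is not stated.

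For each capture and kind with at least 3 cells, log2(mean FPKM + 1) was fitted with limma 3.58.1 in R 4.3.3, with a variance trend and capture as a block for kinds, for genes whose mean over profiles reached 1 FPKM. Tests were two-sided, with Benjamini-Hochberg adjustment over all genes tested in each of 6 comparisons. Col1a1, Rgs5 and Tyrobp, which define the kinds, were not tested. Clustering was not used. The scripts were tested on simulated data. Fold changes on this scale understate changes of low genes. Named genes were the 9 members, the 3 genes most alike to each by Pearson's r among genes averaging 10 FPKM or more, and called list genes, at most 4 per direction. The genes most alike to Soat1 are not reported here. The members and lists were chosen with earlier results of these data known. Promoters came from RefSeq (GRCm38.p6).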

Additional observations from a re-analysis of the deposited data

Results flagged for a closer look

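A total of 5 capture values stood apart from the others of their kind, by a gap to the nearest value that was large relative to the range of the group. About 1 in 20 groups of captures is marked by chance, and 25 groups were examined. Apod in the matrix cells of day 12 capture 2 was low, at 35.8 FPKM against 166 to 496 in the other 6 captures. Apod in the mural cells of day 21 capture 1 was high, at 590 FPKM against 21.0 to 48.2 in the other captures. Lrp1 in the myeloid cells of day 21 capture 1 was low, at 1.84 FPKM against 11.6 to 13.4. Cd36 was at 0.033 FPKM in the matrix cells of day 12 capture 3 and at 0.086 FPKM in the mural cells of day 15 capture 1. Each value came from 1 cell, and all other captures of those kinds were at 0. Any single value above 0 is marked in such a group, so the rate of 1 in 20 does not apply to Cd36.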

How the results depend on the processing

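The study's captures share numbers between days without a stated link, and same-numbered matrix captures deviated with correlations of -0.0068 to 0.025, so the numbers were not taken as pairs. A replicate block on these numbers gave 2.14 for Apod between days 21 and 12 and called 0 members, where 0 of 13550 genes were called. Member counts between kinds in this paragraph include Cd36 and Msr1, whose calls follow from the filter. For kinds, the fit with no replicate block called 0, 6 and 4 members (mural minus matrix, myeloid minus matrix, myeloid minus mural). Over all 14019 genes it called 248, 3038 and 2029 in the same order. Myeloid minus matrix called 3 members in the pairwise fit (859 of 13056 genes) and 2 in later captures only (416 of 13324 genes). Day 12 captures hold 1 myeloid profile, so member calls of myeloid cells are not given for them alone. Myeloid minus mural called 1 member in later captures only (73 of 13324 genes). Mural minus matrix called 2 (Apod, Lrp1) when log2 values were averaged over cells, where 431 of 14019 genes were called. The direction changed for Soat1, myeloid minus matrix, with averaged log2 values (0.035) and in day 12 captures only (1.10), for Abca1, myeloid minus matrix, in later captures only (-0.85), and for Abcg1, mural minus matrix, with at least 1 cell per profile (-0.82) and in later captures only (-0.019). Without single captures, the ranges were -0.78 to 0.89 for Abca1, myeloid minus matrix, -0.11 to 0.63 for Abcg1, mural minus matrix, -0.32 to 1.05 for Soat1, myeloid minus mural, and -0.20 to 1.15 for Apod, days 15 minus 12. Among 387 values of the comparisons that the text gives only as ranges or not at all, 45 changed sign and 0 were called. The causes were not tested. The calls of Apoe were kept in 22 of 23 settings in both comparisons with myeloid cells, and that of Apod against matrix cells in 20. Those of Msr1 were kept in 22 and 21 settings and those of Cd36 in 20 and 17. The latter calls restate detection, so their number is no measure of stability. Over all genes the calls ranged from 0 to 879 (143 as reported) for mural minus matrix, 0 to 3038 (2197) for myeloid minus matrix and 0 to 2029 (915) for myeloid minus mural, and reached 28 (0) and 70 (1) for days 15 and 21 minus 12 with averaged log2 values. A pseudocount of 10 split the myeloid minus matrix calls into 343 higher and 700 lower, against 427 and 1770. TPM scaling moved the median of myeloid minus matrix from -0.85 to -1.05. With 26 myeloid cells in 6 captures, absence of Apod or Cd36 in a capture rests on 1 to 11 cells.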

Other observations

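A further 11 kept cells met none of the 3 kind limits. Apoe was detected in 7 of them, with a median of 8.19 FPKM, and in 1 cell of day 21 capture 1 it was at 17788 FPKM with Tyrobp at 207 and Col1a1 at 50.8. Cd36 and Msr1 were listed at 0 in all 11 cells. Apod was detected in 8, with a median of 180 FPKM and a highest value of 3153. Among the regulator genes, Nr1h3, which encodes LXRα, had a mean of 28.2 FPKM in mural cells, 8.65 in myeloid cells and 0.032 in matrix cells over captures, and was not called in any of the 3 comparisons of kinds by limma. It was named after its values were seen.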
